A study of Mus musculus with 8 samples.

Results

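The genes described here are 34 mouse genes of the unfolded protein response and the integrated stress response, chosen by symbol for their known roles, and all 34 were found among the 55376 genes of the deposited count table. They were sorted by role into 14 chaperones and folding enzymes of the endoplasmic reticulum (ER), 5 genes of ER-associated degradation (ERAD), 5 stress sensors and transcription factors, and 10 targets of the factor ATF4. All 34 passed the filter on low counts and were among the 14382 genes tested, so no member was lost to it. The ER folds secreted and membrane proteins. When unfolded protein builds up there, the sensors IRE1, PERK and ATF6 start the unfolded protein response: IRE1 splices Xbp1 mRNA, ATF6 is cut to release a transcription factor, and PERK phosphorylates the initiation factor eIF2alpha. That phosphorylation, which other kinases also carry out during amino acid shortage, infection or haem shortage, is the integrated stress response, which slows translation while favouring that of ATF4. Dendritic cells are known for steady activity of the IRE1 and XBP1 arm.

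Bone marrow-derived dendritic cells (BMDCs) of the mouse had been stimulated overnight with 1 of 2 heat-inactivated bacteria, P. melaninogenica (PM) or P. heparinolytica (PH). Both groups thus received killed bacteria, and no unstimulated culture was analysed here, so every value compares PM with PH and none gives a response to either. The 6 count columns hold 3 samples of each treatment with the sample ids 1, 3 and 4 in both (PH 3 is the PH sample with id 3). The sources used here do not give mouse strain, age, genotype, dose of bacteria or the method of differentiation. Nothing in them says that the ids are separate animals or cultures, so p-values measure only the spread between these samples.

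The 6 columns held 11624367 to 40233148 counts, the fewest in PH with id 3, and the 34 genes took 0.667% to 0.767% of them. Of 60 marker genes of dendritic and other cells, 49 were tested, and Bst2 (log2 -0.59) and Pdgfrb (-0.70) fell with PM. With the sample id as a block, as used for the members, 10 of the 49 markers were lower with PM. The same fit called 8.27% of all genes lower. Of the macrophage and monocyte list the lower markers were Fcgr1 (-0.87), Ly6c2 (-0.63) and Ccr2 (-0.67), with log2 values of the fit without the block. Of the neutrophil list they were S100a8 (-0.31), S100a9 (-0.31) and Camp (-0.54), and of the others Tcf4, Bst2, Prdm1 and Pdgfrb. Fcgr1 was scarce, at 0.590 to 1.72 CPM, with a blocked adjusted p of 0.0489 and its widest gap at id 4 (log2 ratio -1.54). Adgre1 (-0.05), Mertk (-0.37) and C1qb (0.33) of the macrophage and monocyte list passed in neither fit. Nor did Elane (0.59), Mpo (0.18), Ltf (0.01) and Ly6g (-0.43) of the neutrophil list. The dendritic cell genes Cd74, H2-Ab1, Itgax, Flt3, Zbtb46 and Ccr7 were present in every sample, while Cd209a was at 0 in all 6. The part of other cells in the differences between treatments was not tested. In bulk RNA, fewer cells of a type and less RNA per cell cannot be told apart.

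Levels are in CPM, the count of a gene scaled to the size of its library. Fold changes are log2 of PM over PH from edgeR's quasi-likelihood test with Benjamini-Hochberg adjustment over all 14382 genes, called at 0.05. Samples with the same id deviated together, so each test was also run with the sample id as a block, which compares PM with PH within each id.

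Promoters are shown for 5 of the genes because they place the members' shared elements beside the values that follow. They are the 250 bases before the RefSeq start (build GRCm38.p6), 5′ to 3′ on the strand of the gene. Capitals mark the ER stress elements, ERSE (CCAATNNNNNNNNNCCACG) and ERSE-II (ATTGGNCCACG), and the ATF4 element CARE (TGATGNAA), each searched on both strands. Herpud1 (chr8:94386179-94386428, plus strand) holds an ERSE-II 52 to 42 bases before the start and a CARE, on the other strand, 112 to 105 bases before it. Asns (chr6:7693210-7693459, minus strand) holds a CARE 23 to 16 bases before the start. Hspa5 (chr2:34771840-34772089, plus strand), Calr (chr8:84846932-84847181, minus strand) and Hsp90b1 (chr10:86705445-86705694, minus strand) hold 1, 1 and 2 exact matches to the ERSE. Copies that differ from the letters given were not counted.
Herpud1: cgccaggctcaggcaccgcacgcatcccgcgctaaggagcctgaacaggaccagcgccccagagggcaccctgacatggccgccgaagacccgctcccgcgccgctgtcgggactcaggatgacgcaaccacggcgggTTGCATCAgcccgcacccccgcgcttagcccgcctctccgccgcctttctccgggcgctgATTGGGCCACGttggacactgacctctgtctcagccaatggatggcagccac
Asns: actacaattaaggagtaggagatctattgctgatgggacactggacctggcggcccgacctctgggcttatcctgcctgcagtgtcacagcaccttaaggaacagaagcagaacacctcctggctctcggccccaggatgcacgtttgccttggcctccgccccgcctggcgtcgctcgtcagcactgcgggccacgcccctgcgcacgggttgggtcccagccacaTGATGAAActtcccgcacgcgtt
Hspa5: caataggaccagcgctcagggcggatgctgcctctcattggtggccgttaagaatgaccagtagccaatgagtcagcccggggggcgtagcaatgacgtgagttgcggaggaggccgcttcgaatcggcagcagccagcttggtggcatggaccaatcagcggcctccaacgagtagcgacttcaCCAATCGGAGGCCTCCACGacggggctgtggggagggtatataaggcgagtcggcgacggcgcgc
Calr: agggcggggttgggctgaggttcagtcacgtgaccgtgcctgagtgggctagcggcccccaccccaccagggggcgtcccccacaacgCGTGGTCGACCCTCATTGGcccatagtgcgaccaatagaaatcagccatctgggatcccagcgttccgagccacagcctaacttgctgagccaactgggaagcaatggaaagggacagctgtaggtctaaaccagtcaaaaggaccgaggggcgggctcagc
Hsp90b1: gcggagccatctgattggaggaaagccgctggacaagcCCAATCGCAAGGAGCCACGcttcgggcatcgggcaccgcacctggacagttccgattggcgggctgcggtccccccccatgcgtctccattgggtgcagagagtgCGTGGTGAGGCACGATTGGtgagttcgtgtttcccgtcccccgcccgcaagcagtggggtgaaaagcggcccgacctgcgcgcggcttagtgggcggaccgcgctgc

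RefSeq windows were found for 31 of the 34 genes, with Ero1l under its current symbol Ero1a, and not for Hyou1, Atf6 and Manf. An ERSE was present in 8 of the 31, namely the chaperone genes Hspa5, Hsp90b1, Calr, Canx, Pdia6, Dnajc3 and Creld2 and the ERAD gene Syvn1, against 0.113% of all 32851 windows. The ERSE-II of Herpud1 was the one match among the members, against 0.0304% of all windows. A CARE was present in Herpud1, Atf3, Asns and Chac1, against 3.45% of all windows. The element TGACGTGG, bound by XBP1, was in none of the 31 and in 0.563% of all windows. Such a match is a description of the letters and does not show that a factor bound there. A gene was counted if any of its windows matched, while the background counts single windows, so the shares differ in unit. The members were chosen for known roles in these responses, so setting their matches beside all windows is no test.

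Of 34 members, 1 rose with PM, the ERAD gene Herpud1, and 0 fell. Over all genes tested 0.702% were called higher and 1.64% lower with PM. The members' median log2 fold change was -0.01, beside 0.01 over all genes tested, and 26 of the 34 (76.5%) lay within 0.2 of 0, beside 71% of all genes. At an unadjusted p under 0.05 there were 8 members (23.5%), beside 13.1% of all genes, and DESeq2 called 2, Herpud1 and Trib3, beside 4.06% of all genes. With the sample id as a block 9 of 34 passed, or 26.5%, with 4 higher (Herpud1, Trib3, Ddit3, Asns) and 5 lower (Ero1l, Hsp90b1, Ern1, Ddit4, Phgdh). The same fit called 7% of all genes higher and 8.27% lower. In 4 members all 3 PM samples lay above all 3 PH samples, and in 6 they lay below, beside 10.1% and 9.28% of all genes.

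**Figure D1:**
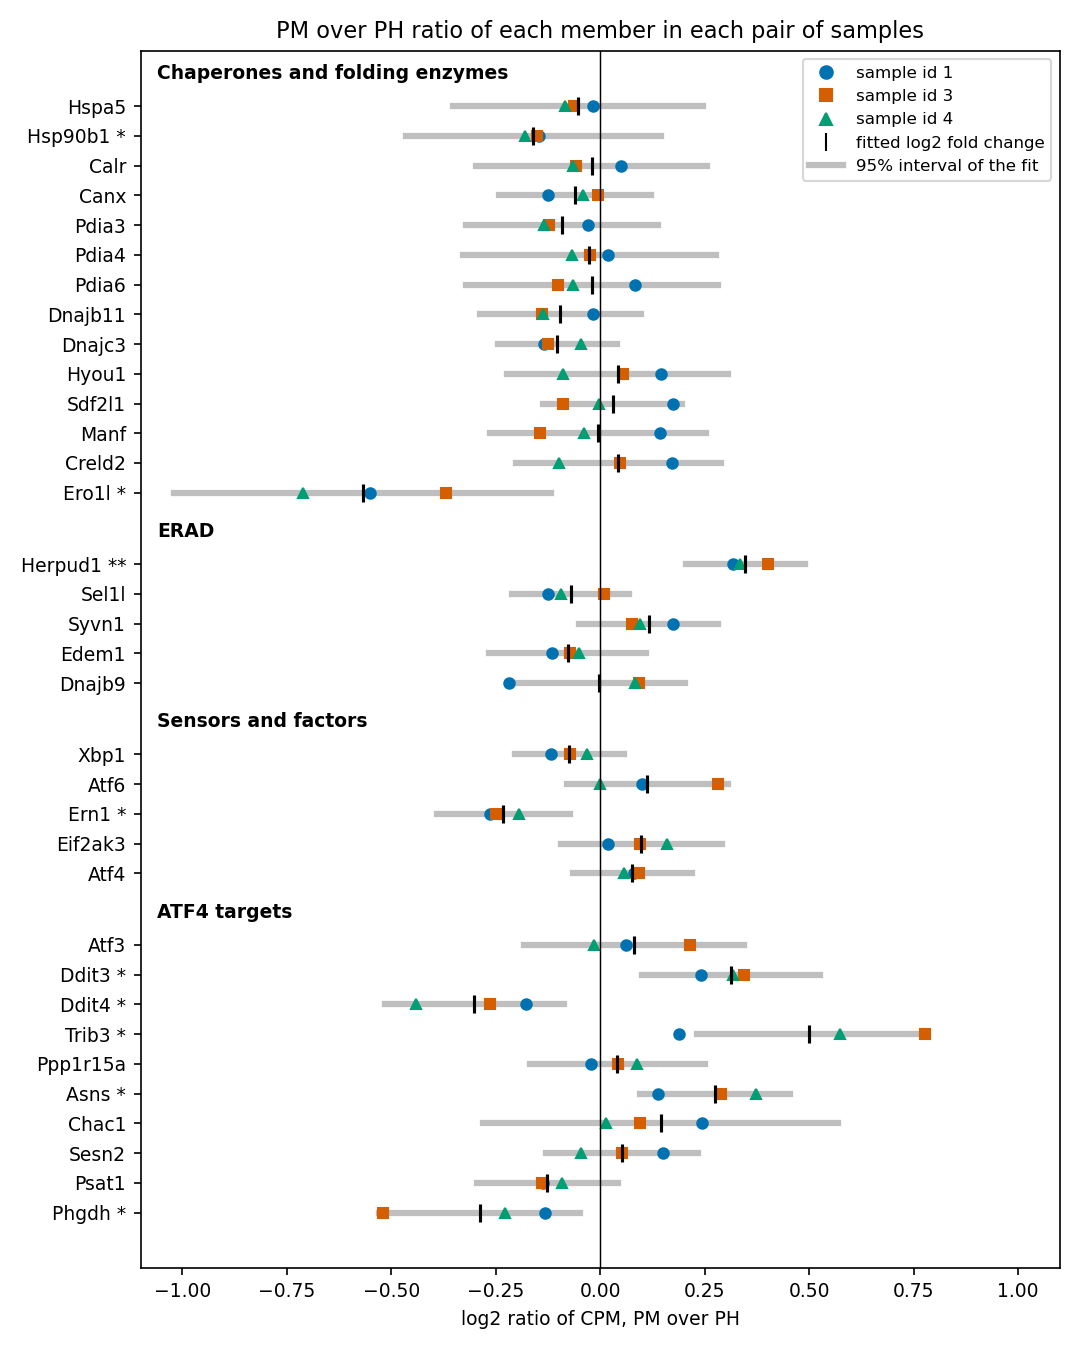
PM over PH log2 ratio of CPM (horizontal axis) for each of the 34 genes in each pair of samples with the same id (coloured points), with the fitted fold change (black tick) and its 95% interval without a block (grey bar). Of all genes drawn, Herpud1 (2 asterisks) passed without a block, and 8 more (1 asterisk) passed with the sample id as a block.

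The chaperones and folding enzymes, which bind and fold new proteins in the ER lumen, included no gene called without the block. There, 0 of 14 passed in either direction, the median log2 fold change was -0.04, and 13 of 14 lay within 0.2 of 0, beside 71% of all genes. Calr, a calcium-binding lectin chaperone, was the most abundant of the 14 per length, at 1166 ± 114 TPM, a level scaled for gene length, with PH and 1148 ± 149 with PM (SD, n = 3). It was at 1299, 1077 and 1097 CPM with PH (ids 1, 3 and 4) and 1344, 1034 and 1048 CPM with PM. Those ranges overlapped, and the log2 fold change was -0.02, with a 95% interval of -0.30 to 0.26 and an adjusted p of 0.97. Its sign turned with total count scaling, where the adjusted p was 0.996. Hspa5, or BiP, the lumenal Hsp70 that holds the sensors inactive, had a log2 fold change of -0.05 with an interval of -0.35 to 0.25. The lectin chaperone Canx (-0.06), the disulfide isomerases Pdia3 (-0.09), Pdia4 (-0.03) and Pdia6 (-0.02), and the BiP co-chaperones Dnajb11 (-0.09) and Dnajc3 (-0.10) had log2 fold changes below 0, none past the threshold. Dnajc3 was the chaperone whose PM samples all lay below the PH samples. Sdf2l1, Manf, Creld2 and the nucleotide exchange factor Hyou1 lay between -0.0048 (Manf) and 0.04 (Creld2).

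The exception by size was Ero1l, the oxidase that regenerates disulfide isomerases and is also known as a gene of the hypoxia response. Its levels were 197, 117 and 185 CPM with PH (ids 1, 3 and 4) and 135, 90.3 and 113 CPM with PM. Each PM sample was below its PH partner, yet the groups overlapped because PH with id 3 lay below PM with id 1. The log2 fold change was -0.57 ± 0.20 (SE), with an adjusted p of 0.247 without a block and 2.27e-09 with it. In the blocked fit Ero1l also passed when any 1 id was left out. Hsp90b1, the ER form of Hsp90, was at 701, 523 and 584 CPM with PH and 633, 471 and 516 CPM with PM. It was lower with PM in 3 of 3 pairs while the groups overlapped, with a log2 fold change of -0.16 ± 0.13 (SE) and adjusted p-values of 0.691 without and 0.0141 with the block. The blocked call was lost without id 3 (adjusted p = 0.0958) or id 4 (0.131). Other genes overlap 21.6% of the exon bases of Hsp90b1, among them the antisense gene 1810014B01Rik, and no source used here gives the strand setting of the counting. Leaving out id 1 instead brought the blocked count of lower chaperones from 2 to 4 of 14, by adding Pdia3 (adjusted p = 0.0322) and Dnajb11 (0.0172). In either direction, the full blocked fit called 2197 of 14382 genes, and 2145 of 14958 were called without id 1.

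Among the chaperones id 1 stood apart from ids 3 and 4 in both treatments, as a description with no test. Within each treatment all 14 were highest at id 1, whereas 24.3% of all genes tested were highest at id 1 in both treatments. Their summed level was 5608, 4559.6 and 4837 CPM with PH and 5509.9, 4312 and 4484 CPM with PM, so both id 1 samples lay above the other 4. Hspa5 shows it at 962, 747 and 789 CPM with PH and 950.0, 715 and 745 CPM with PM. Against the mean of ids 3 and 4, id 1 was higher by a median log2 of 0.20 with PH and 0.37 with PM. The smallest gap was that of Sdf2l1 with PH, at 77.5, 77.5 and 77.0 CPM, which is a near tie. For Ero1l the gap at id 1 was 0.39 with PH and 0.41 with PM, smaller than its log2 fold change between treatments (-0.57). With upper-quartile scaling 13 of 14 were highest at id 1 in both treatments and with total count scaling 12, beside 23.9% and 19.3% of all genes.

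In the other roles the counts were lower. Of the 5 ERAD genes 2 were highest at id 1 in both treatments, of the 5 sensors and factors 2, and of the 10 ATF4 targets 1, while 5 of these 10 were lowest there. The share of all genes lowest at id 1 was not computed, so counts of genes lowest there have no background. Markers of other cells moved with the id too. The 9 macrophage and monocyte markers summed to 869.7, 581 and 649.9 CPM with PH and 777, 527 and 555 CPM with PM, most of it Adgre1, with C1qa at 0.123 CPM or less. Of 10 B and plasma cell markers, 8 were highest at id 1 in both treatments, and the list, most of it Sdc1, summed to 249, 161 and 212 CPM with PH and 268, 172 and 201 CPM with PM. The defining plasma cell genes Jchain and Mzb1, both among those 8, and Tnfrsf17 were at or near 0 in all samples. The 8 neutrophil markers summed to 533, 429 and 518 CPM with PH and 455, 322 and 434 CPM with PM, with 6 of them highest at id 1 in both treatments. Those 6 include the scarce Ly6g and Retnlg, at 0.944 CPM or less in every sample. The 9 dendritic cell markers summed to 8071, 9900.4 and 9088 CPM with PH and 7986, 9579.9 and 8976 CPM with PM, lowest at id 1, and 6 of them were lowest there in both treatments. The stromal and T and NK cell sums were lowest at id 1 as well. The part of these cells in the order of the chaperones was not tested.

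**Figure D2:**
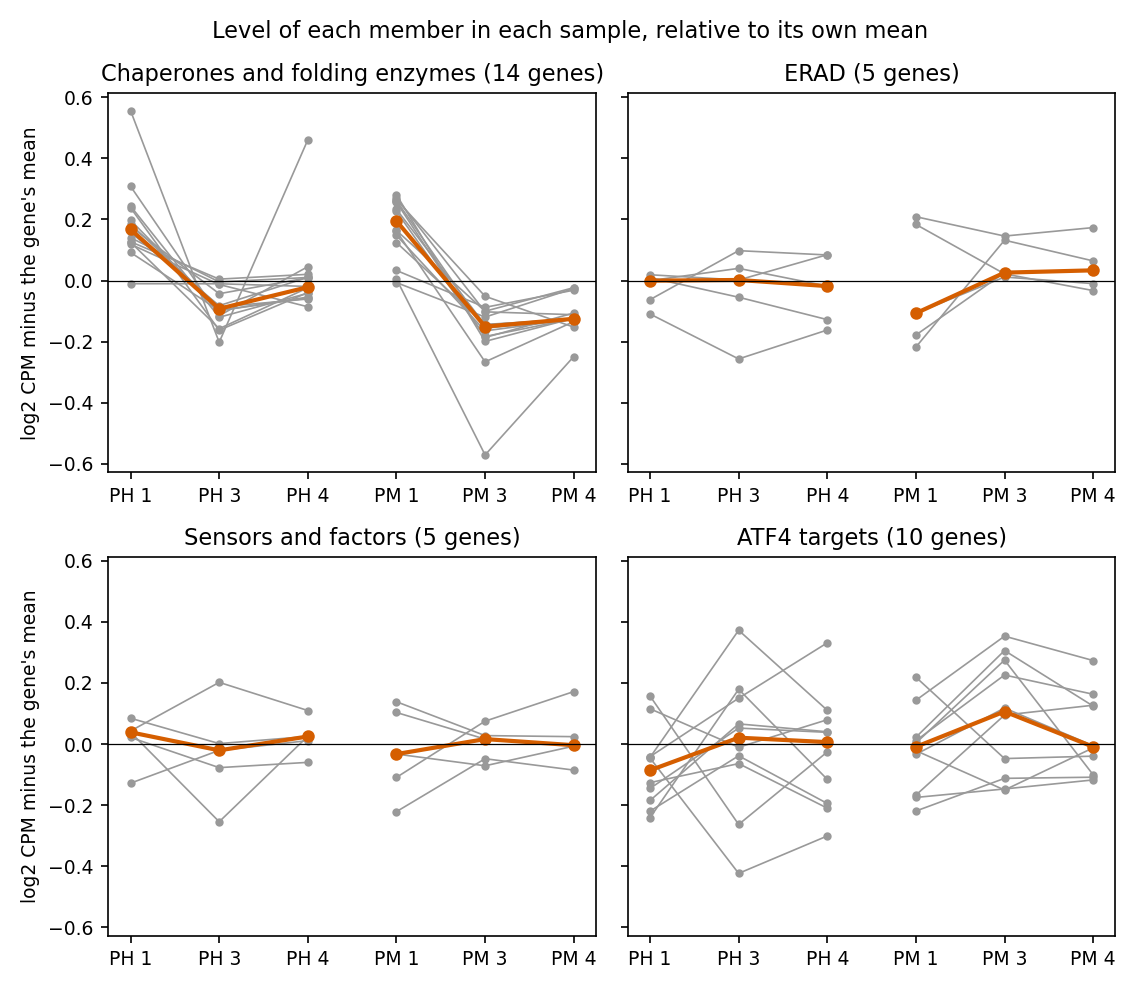
Log2 CPM of each gene minus its own mean over the 6 samples (vertical axis) in each sample, in 4 panels by role. Grey lines are single genes, broken between treatments, and the orange line is the median, which for the 14 chaperones is highest at id 1 with PH and with PM.

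ERAD takes misfolded proteins back to the cytosol for destruction. Herpud1, a membrane protein of the HRD1 ligase complex, was at 40.6, 36.7 and 39.2 CPM with PH (ids 1, 3 and 4) and 50.7, 48.5 and 49.5 CPM with PM. All 3 PM samples lay above all 3 PH samples, and the spread within each treatment was small beside the gap. The gene (chr8:94386438-94395377, GRCm38) rose by a log2 fold change of 0.35 ± 0.06 (SE), with an adjusted p of 0.0243 without a block and 3.05e-05 with it. Without a block the call was lost when PH 3 (0.0978), PH 4 (0.131), PM 3 (0.0842) or PM 4 (0.116) was left out, the values being adjusted p. It was kept in the blocked fit without any 1 id. The other 4 ERAD genes did not pass in either fit. Edem1, which helps to hand over misfolded glycoproteins and was the most abundant per length (182 ± 12.7 TPM with PH and 173 ± 17.6 with PM, SD, n = 3), was at 448, 501 and 496 CPM with PH and 413, 476 and 479 CPM with PM. Its ranges overlapped, with an adjusted p of 0.765. The ligase HRD1 (Syvn1, log2 0.12), its partner Sel1l (-0.07) and the co-chaperone Dnajb9 (-0.0022) completed the set. Thus Herpud1 was called and its complex partners Syvn1 and Sel1l were not, though whether their fold changes differ was not tested.

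Of the 5 sensors and factors, 0 passed without a block, and their median log2 fold change was 0.08. Ern1, which encodes the kinase and RNase IRE1alpha, was at 55.1, 61.6 and 57.8 CPM with PH and 45.9, 51.8 and 50.5 CPM with PM. Every PM sample lay below every PH sample, with a log2 fold change of -0.23 ± 0.07 (SE) and adjusted p-values of 0.168 without and 0.00265 with the block. The blocked call was kept without any 1 id. Xbp1, whose mRNA IRE1 splices, also had all PM samples below all PH samples (187, 177 and 179.7 against 173, 168 and 176 CPM), but its log2 fold change was -0.07 and it passed in neither fit. Counts per gene do not separate spliced from unspliced Xbp1. Atf4, the main factor of the integrated stress response and the most abundant of the 5 per length (279 ± 8.85 TPM with PH and 294 ± 5.16 with PM, SD, n = 3), was at 228, 213 and 215 CPM with PH and 241, 227 and 224 CPM with PM. It was higher with PM in 3 of 3 pairs, the ranges overlapped, and the log2 fold change of 0.08 ± 0.06 (SE) did not pass (adjusted p = 0.676). ATF4 is controlled largely at translation, which mRNA counts do not measure. Atf6 (0.11) and the PERK gene Eif2ak3 (0.10) did not pass either, and an antisense gene overlaps 10% of the exon bases of Eif2ak3.

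The ATF4 targets held most of the members that passed with the block, 3 higher and 2 lower of 10, or 50%. That fit called 7% of all genes higher and 8.27% lower. Without the block 0 of 10 passed, beside 0.702% of all genes higher and 1.64% lower. Trib3, a pseudokinase that feeds back on ATF4, was at 10.1, 7.77 and 8.46 CPM with PH and 11.5, 13.3 and 12.6 CPM with PM. The groups did not overlap, and the log2 fold change of 0.50 ± 0.12 (SE) was the highest of the 34, with adjusted p-values of 0.0754 without and 4.73e-04 with the block. Ddit3, which encodes the pro-apoptotic factor CHOP, was at 20.0, 22.6 and 20.3 CPM with PH and 23.6, 28.7 and 25.3 CPM with PM. It too showed no overlap, with a log2 fold change of 0.31 ± 0.09 (SE) and adjusted p-values of 0.164 and 0.00175. Antisense genes, Mars among them, overlap 9.1% of the exon bases of Ddit3. Asns, asparagine synthetase, was at 28.5, 29.7 and 26.8 CPM with PH and 31.3, 36.3 and 34.8 CPM with PM. Again the PM samples lay above the PH samples, with a log2 fold change of 0.28 ± 0.08 (SE) and adjusted p-values of 0.144 and 0.00253. Its blocked call was lost without id 4 (adjusted p = 0.152), whereas those of Trib3 and Ddit3 were kept without any 1 id.

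In the other direction, Ddit4, an inhibitor of mTORC1 that also answers to hypoxia and glucocorticoids, was at 232, 265 and 301 CPM with PH and 205, 221 and 222 CPM with PM. All PM samples lay below the PH samples, with a log2 fold change of -0.30 ± 0.09 (SE) and adjusted p-values of 0.19 without and 3.78e-05 with the block. Phgdh, the first enzyme of serine synthesis, was at 18.3, 24.4 and 20.4 CPM with PH and 16.7, 17.0 and 17.4 CPM with PM. The PM samples were close together and below all PH samples, with a log2 fold change of -0.29 ± 0.11 (SE) and adjusted p-values of 0.275 and 0.0108. The blocked call was lost without id 3 (adjusted p = 0.206), the pair with the widest gap. Psat1, the next enzyme of the same route, was likewise lower in all PM samples but passed in neither fit (log2 -0.13, blocked adjusted p = 0.262). Thus among 3 amino acid synthesis genes of this list, Asns was higher and Phgdh and Psat1 lower with PM, and the difference between them was not tested.

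The remaining targets passed in neither fit. Atf3, a stress-induced repressor and the most abundant target per length (311 ± 44.1 TPM with PH and 328 ± 28.0 with PM, SD, n = 3), was at 347, 259 and 306 CPM with PH and 362, 301 and 303 CPM with PM. Those ranges overlapped, and the log2 fold change was 0.08 ± 0.12 (SE) with an adjusted p of 0.831. Ppp1r15a (GADD34, which reverses eIF2alpha phosphorylation) had 0.04 and Sesn2, a restraint on mTORC1, had 0.05 on the same scale. Chac1, which degrades glutathione, was the scarcest member at 2.26 to 3.23 CPM, with 0.14 and an interval of -0.28 to 0.57. Of the 3 targets with a CARE in the window, Asns passed with the block, while Atf3 and Chac1 did not.

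**Figure D3:**
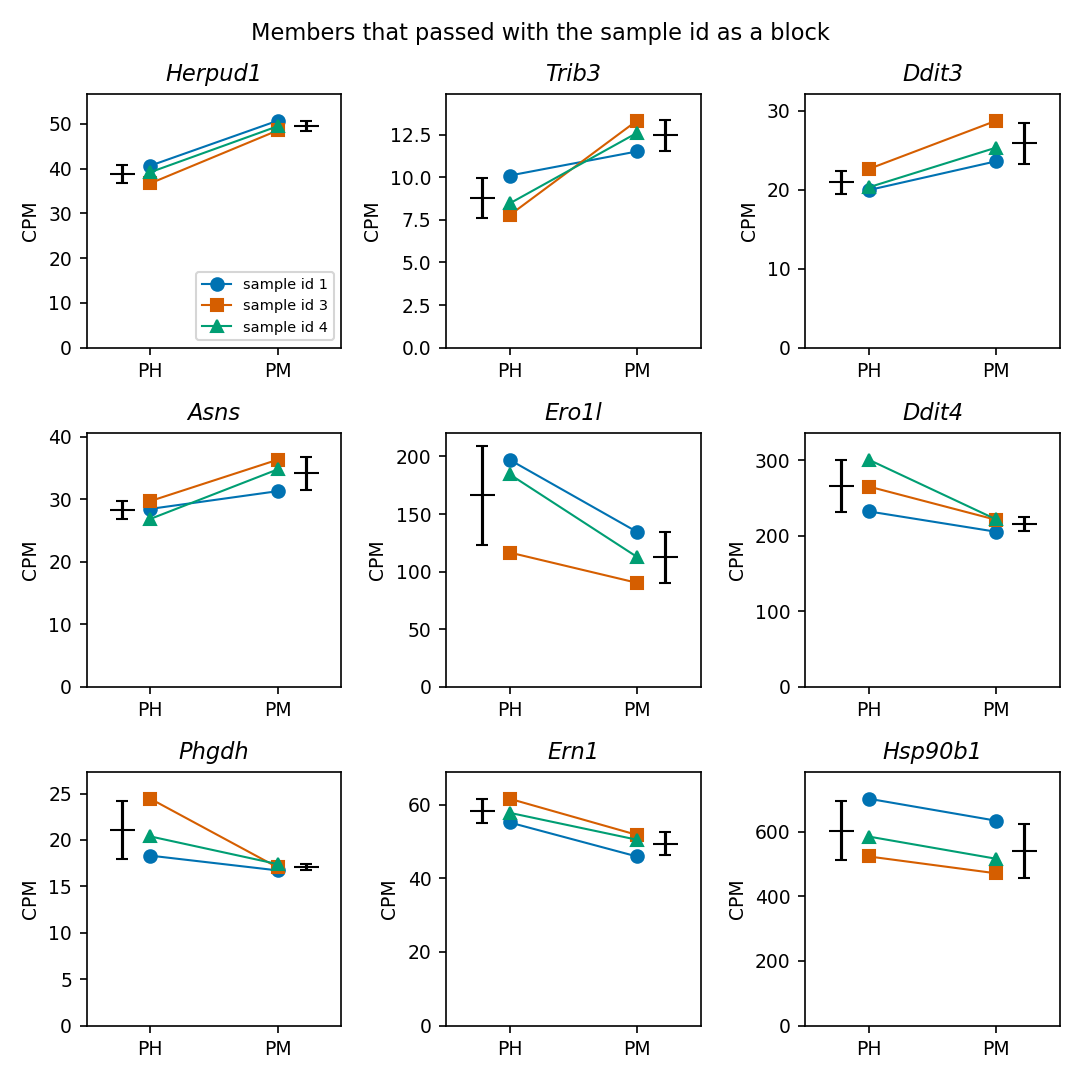
CPM (vertical axes, from 0) of the 9 genes that passed with the sample id as a block, with lines joining the PH and PM samples of one id and black bars giving mean ± SD of 3 samples. Herpud1, Trib3, Ddit3 and Asns were higher and the other 5 genes lower with PM in all 3 pairs.

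Further genes of these pathways were described from lists of 123 genes, of which Ern2, Creb3l3, Cbs and Fgf21 were too low to test. Of the 119 tested, 1 rose and 4 fell without a block, and 11 were higher and 10 lower with it, or 17.6%, beside 15.3% of all genes. The median log2 fold change was -0.0037. The 1 that rose was Gdf15, a secreted stress cytokine, at 35.8, 42.8 and 41.9 CPM with PH and 67.9, 66.6 and 60.6 CPM with PM. Its groups did not overlap, with a log2 fold change of 0.70 ± 0.08 (SE) and an adjusted p of 0.00376. Nupr1, a stress-induced chromatin protein, fell from 12.9, 14.6 and 13.0 CPM with PH to 8.17, 7.99 and 7.37 CPM with PM. On the log2 scale this was -0.78 ± 0.10 (SE), with an adjusted p of 0.00478. Both are usually counted among ATF4-linked outputs, yet they moved apart here.

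Eif2ak2, which encodes the double-stranded RNA-activated eIF2alpha kinase PKR and is an interferon-stimulated gene, was at 62.3, 50.9 and 58.0 CPM with PH and 36.1, 35.5 and 39.9 CPM with PM. It fell, with a log2 value of -0.62 ± 0.09 (SE) and an adjusted p of 0.00742, or 0.0516 without PH 4. Cdkn1a, the cell cycle inhibitor p21, was at 754, 729 and 759 CPM with PH and 559, 585 and 568 CPM with PM. It fell, at -0.39 ± 0.06 (SE) on the same scale with an adjusted p of 0.0157, a call lost without PH 4 (0.118), PM 3 (0.0701) or PM 4 (0.105). An antisense gene overlaps 10% of the exon bases of Cdkn1a. Stc2, a stanniocalcin induced by ER stress, was scarce at 6.28, 4.66 and 6.49 CPM with PH and 3.58, 2.30 and 2.36 CPM with PM. It fell, at -1.14 ± 0.21 (SE) with an adjusted p of 0.027, and the call was lost without PH 1 (0.0804), PH 4 (0.157), PM 3 (0.112) or PM 4 (0.145).

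By list, the outputs of stress held the most calls with the block, 4 higher and 5 lower of 13 tested, or 69.2%. The same fit called 7% of all genes higher and 8.27% lower. Of 16 amino acid supply genes 3 were higher, the transporters Slc1a4 (log2 0.26, blocked adjusted p = 0.00307), Slc1a5 (0.18, 0.0155) and Slc38a2 (0.18, 0.0077). Of 12 aminoacyl-tRNA synthetases, Aars (0.15, 0.0268) and Sars (0.14, 0.0452) were higher and Wars (-0.15, 0.0394), also known as interferon-induced, was lower. Exosc6 overlaps 23.1% of the exon bases of Aars. Of 22 other folding genes 1 was higher, the prolyl isomerase Fkbp11 (0.73, 1.02e-05), and 1 lower, the co-chaperone Dnajc1 (-0.23, 4.66e-04). Of 20 translocation and trafficking genes 2 were lower, Sec24d (-0.19, 0.00745) and Srpr (-0.14, 0.0405). None of the 20 further ERAD genes passed in either fit or by DESeq2, and 0 had an unadjusted p under 0.05 in the edgeR fit without a block. In the blocked edgeR fit Herpud2, Aup1 and Vcp were under that level before adjustment but not after it. Herpud2 (log2 0.17, blocked adjusted p = 0.0501) lay just outside the threshold and was higher with PM in 3 of 3 pairs, as was Aup1 (0.10, 0.16). Vcp (-0.12, 0.0716) was lower in all 3 pairs. Herpud1 was the 1 call among 25 ERAD genes. Of all genes tested, 0.702% were called higher and 1.64% lower without a block, and 15.3% in either direction with it.

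**Figure D4:**
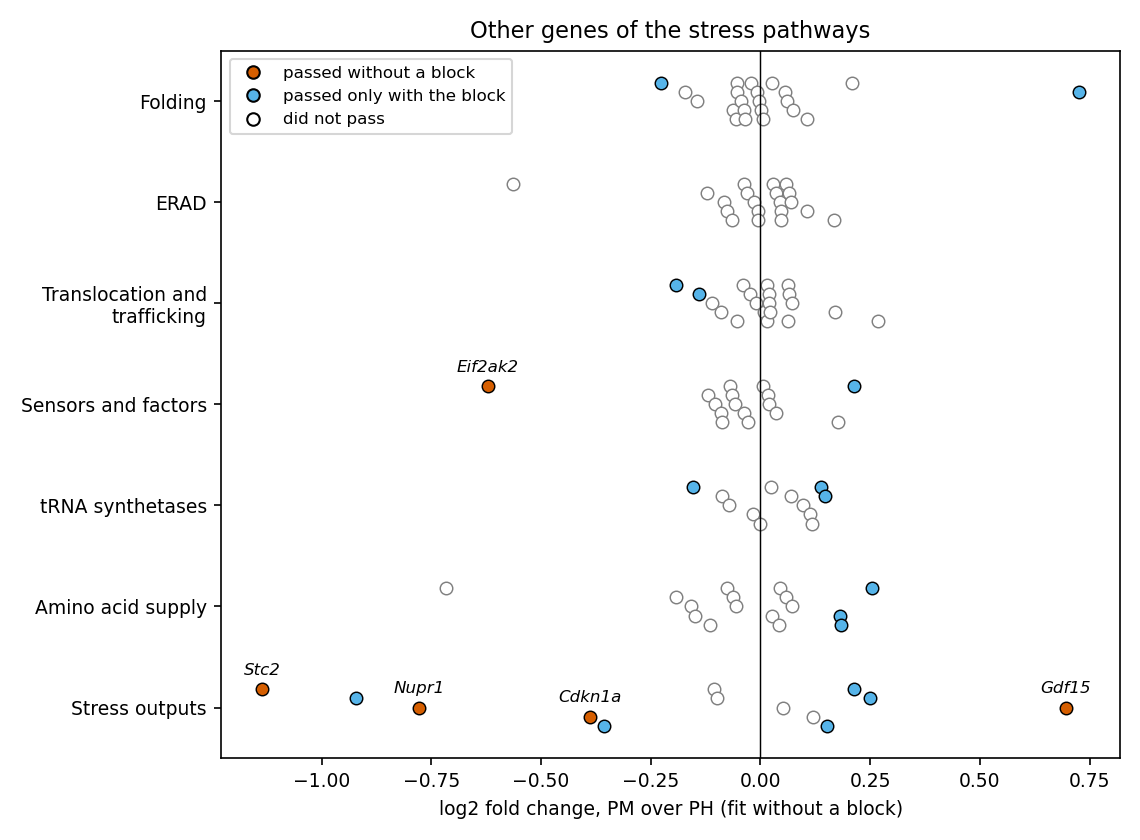
Log2 fold change of PM over PH (horizontal axis) for each of the 119 other pathway genes tested, in 7 lists. Orange points passed without a block, blue points with the sample id as a block alone and open points in neither fit, and the widest spread is among the stress outputs, with Gdf15 on the right and Nupr1 and Stc2 on the left.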

How the data were processed

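Counts of reads per gene were deposited by the authors in 1 table with a column for each of 6 samples. The tools were featureCounts 1.6.4, STAR 2.5.3a and Trimmomatic, and the build GRCm38, per the submitters' processing notes. Per the labels' protocols, libraries were made from polyadenylated RNA with a kit that marks strand. No source used here gives the strand setting or the annotation release. The columns PM 1 and PH 3 each match 2 of the 8 listed libraries, run 1 and run 2, and whether their reads were joined is not given. The exon length in the file (an other quantity, in bases, as deposited by the authors) was used to compute TPM.

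Counts were tested in R 4.3.3 with edgeR 4.0.16 (TMM scaling, filterByExpr with a minimum count of 10, quasi-likelihood test, Benjamini-Hochberg adjustment over all genes tested, threshold 0.05), PM against PH, with 3 samples each. The labels give both treatments the same ids. Deviations from the group means of same-id samples correlated at 0.44, 0.32 and 0.24 for ids 1, 3 and 4, so the ids were taken as pairs and a fit with the id as a block is given where it changes a call. The alternatives were other scalings and filters, DESeq2 1.42.0, leaving out samples, and the 4 single-library columns alone. The smallest chi-square per degree of freedom between 2 columns was 4.63, so none repeats another. The test was checked on simulated data. Exon overlaps were computed from the exon coordinates deposited with the counts, and promoters were taken from RefSeq.

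CPM were printed for members past the threshold without a block, for up to 4 per role past it with the block by size, and for the most abundant per role. Asns and the values of Hspa5, Sdf2l1 and Xbp1 were added after they were seen. Of the other lists, genes past the threshold without a block were named, and otherwise up to 4 per list past it with the block. The ERSE-II search and the 250-base window were chosen after the data were seen. One result on a marker gene is not reported here. The members and all lists were chosen with earlier results of these data known.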

Additional observations from a re-analysis of the deposited data

How the results depend on the processing

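The count of members past the threshold was 1 and stayed at 1 with RLE, upper-quartile and total count scaling and with a filter of 1 CPM in 3 samples. It was 9 with the replicate block, 3 without a filter on low counts, 2 with DESeq2 and 4 with the single-library columns alone (2 samples a group, with ids that differ between groups). It was 0 to 1 on leaving out 1 sample and 7 to 11 on leaving out 1 id from the blocked fit. The calls over all genes moved as well. They were 337 of 14382 in the main fit, 2197 of 14382 with the block and 584 of 14382 with DESeq2. Without the filter they were 846 of 27765, and with the single-library columns 629 of 14921. On leaving out 1 sample they were 142 to 417, and on leaving out 1 id from the blocked fit 1529 to 2145. For the chaperones the count was 2 with the block, 1 with the single-library columns and 0 on leaving out 1 sample and 1 to 4 on leaving out 1 id from the blocked fit. For ERAD it was 0 to 1 on leaving out 1 sample and 1 on leaving out 1 id from the blocked fit. For sensors and factors it was 1 with the block and 0 on leaving out 1 sample and 1 on leaving out 1 id from the blocked fit. For ATF4 targets it was 5 with the block, 2 without the filter, 1 with DESeq2, 2 with the single-library columns and 0 on leaving out 1 sample and 4 to 5 on leaving out 1 id from the blocked fit. For the other pathway genes it was 21 with the block, 8 without the filter, 9 with the single-library columns and 2 to 6 on leaving out 1 sample and 12 to 22 on leaving out 1 id from the blocked fit. The members' median log2 fold change was -0.12 with the single-library columns and -0.090 to 0.035 on leaving out 1 sample and -0.054 to -0.003 on leaving out 1 id from the blocked fit.

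Among the genes that the rules above picked to be named, the direction turned for 3, none of which passed. Other members near 0 turned as well, such as Hspa5 (log2 0.06 without PH 1) and Hyou1 (-0.10 without PM 1). Atf3 turned with the single-library columns (adjusted p = 0.459) and without PH 3 (0.959) or PM 1 (0.962). Calr turned with total count scaling (0.996) and without PH 1 (0.899), PM 3 (0.943) or PM 4 (0.953). Edem1 turned with the single-library columns (0.973). Over the fits that leave out any 1 sample, or any 1 id with the block, whether or not the direction turned, the adjusted p was 0.194 to 0.962 for Atf3 and 0.438 to 0.982 for Calr. The cause was not tested. The block changed no call of a gene named here other than those given. The number of samples, 3 a group, limits all tests, and members as scarce as Chac1, at 2.26 to 3.23 CPM, are measured from few counts.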

Other observations

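The order by sample id seen in the chaperones was also present in other genes of the secretory pathway. Of the 22 other folding genes 14 were highest at id 1 in both treatments, and of the 20 translocation and trafficking genes, which carry proteins into and out of the ER, 16 were. Of the 20 further ERAD genes 7 were, of 12 tRNA synthetases 4, and of 17 amino acid supply genes 3, while 9 of those 17 were lowest at id 1 in both treatments. The background over all genes tested was 24.3% for genes highest at id 1, and none was computed for genes lowest there. The summed level of the translocation and trafficking genes was 2916, 2646 and 2686 CPM with PH and 2903, 2622 and 2639.9 CPM with PM.

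Fkbp11 was at 6.20, 4.15 and 4.06 CPM with PH and 11.4, 5.53 and 7.31 CPM with PM. It was higher with PM in 3 of 3 pairs and highest at id 1 in both treatments. All 14 chaperones shared that order, as did the summed levels of the macrophage and monocyte, neutrophil, and B and plasma cell markers. The plasma cell genes Jchain, Mzb1 and Tnfrsf17 were at or near 0 in all samples. The relation between Fkbp11 and these lists was not tested.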
